A study of Mus musculus with 6 samples.

Results

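Mitotic CD8 T cells in B16-OVA tumors numbered 2712 among 15744 tumor cells that passed the filters and 29156 such cells in tumors and draining lymph nodes (LN) together. They were chosen by their transcripts of *Ccnb2*, *Cdc20*, *Cenpa* and *Cdkn3*. A cell was a member when it held at least 10 UMIs (unique molecular identifiers, each the count of an RNA molecule) summed over these genes. The control library gave 844 members of 7106 tumor cells and the CD8-IFNγRKO library 1868 of 8638. A cell enters mitosis when cyclin B activates the kinase CDK1, and it leaves when the anaphase-promoting complex, with its activator CDC20, marks cyclin B and securin for destruction. CENP-A is the histone that marks centromeres, where kinetochores attach chromosomes to the spindle. Transcripts of these genes accumulate in G2 and are highest in mitosis, so that G2 cells and cells in mitosis cannot be told apart by RNA alone. In tumors, CD8 T cells that recognise tumor antigens expand by such divisions.

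Mice were engrafted with B16-OVA, a mouse melanoma line that expresses ovalbumin. Control mice were CD8-Cre Rosa26Tomato, and CD8-IFNγRKO mice carried in addition *IFNgR1* flox/flox, the gene of the receptor chain that binds IFNγ. Both genotypes therefore carried the Cre, driven by a CD8α promoter, and the Tomato reporter, and the study used young adult mice of both sexes. At day 12, cells of 3 mice per genotype were pooled, sorted for CD45, CD3, CD8 and Tomato, and made into 1 library of transcript 5′ ends per tissue and genotype, with T cell receptor (TCR) libraries from the tumors. Genotype could thus not be told apart from library, depth, mice or tumors. No test between genotypes was possible, and cells were not counted as replicates. All intervals are 95% intervals for counting error only. The tumor cells held 59500811 UMIs in the control library and 94004352 in the CD8-IFNγRKO library, a median of 6306 and 9399.5 per cell.

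The targeted gene was read out first. In mitotic cells, *Ifngr1* stood at 602 (589 to 614) CPM (counts scaled to the same total of UMIs in each group) in the control library and 225 (220 to 230) CPM in the CD8-IFNγRKO library. In LN cells the values were 182 and 137 CPM. The control libraries were higher in both tissues. Transcripts of a deleted allele can still give 5′ reads from outside the floxed part, so that these levels do not show which cells kept a receptor. *Ifngr1* was 608 CPM in depth-matched other cells of the control library and 195 CPM in those of the CD8-IFNγRKO library.

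The members held transcripts of the CD3 complex, which defines T cells. The filters did not use these transcripts, but the cells had been sorted for CD3. *Cd3g* stood at 1861 CPM in control and 1461 CPM in CD8-IFNγRKO mitotic cells, and *Cd3e* at 1539 and 1195 CPM. Markers of other cells were low. The 11 macrophage genes summed to 99.3 CPM in control and 60.3 CPM in CD8-IFNγRKO mitotic cells, of which *Fcer1g* gave 74.7 and 48.3 CPM, and *Lyz2* gave 2.06 and 0.234 CPM. The 6 dendritic cell and MHC class II genes summed to 135 and 26.9 CPM, with *Cd74* at 70.4 and 13.8 CPM. The 7 melanoma genes gave 3.73 and 2.63 CPM, the 5 B cell genes 5.86 and 13.0 CPM with *Ms4a1* at 0 UMIs in both libraries, the 3 CD4 T cell genes 5.66 and 5.32 CPM, the 2 NK cell genes 0.133 and 0.146 CPM, and the 4 stromal genes 3.79 and 2.66 CPM. In depth-matched other cells, macrophage genes summed to 119 and 68.4 CPM and dendritic cell genes to 160.2 and 34.0 CPM. After thinning to 5000 UMIs, *Cd4* was seen in 1.92% (1.10 to 3.10) of control and 2.37% (1.73 to 3.17) of CD8-IFNγRKO mitotic cells, beside 1.87% and 2.5% of matched cells. Their part in the results was not tested.

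Doublets were not called. A second productive TCR beta chain, which a doublet of T cells can carry, was present in 16 control and 36 CD8-IFNγRKO members. These were 3.48% and 2.58% of members with a beta chain, beside 2.11% and 2.62% of depth-matched cells with one. Barcodes of 42 control and 82 CD8-IFNγRKO members also occurred in another library, which was 4.98% and 4.39% of members and 5.00% and 4.33% of all tumor cells that passed the filters.

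*Cenpa* supplied most of the UMIs that chose the cells. It gave 60.3% of them in the control library and 56.7% in the CD8-IFNγRKO library, *Ccnb2*, which encodes cyclin B2, gave 21.8% and 23.5%, *Cdc20* 9.94% and 11.5%, and *Cdkn3*, a phosphatase that acts on cyclin-dependent kinases, 8.02% and 8.32%. The median member held 18 such UMIs in both libraries, and the highest held 72 and 79. All 4 genes were detected in 53.3% of control and 57.8% of CD8-IFNγRKO members, and *Cenpa* alone in 3 and 8 cells.

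The promoters of these genes are shown because the members were chosen by the summed UMIs of these genes. Promoters of many genes of G2 and mitosis hold CCAAT boxes, bound by the factor NF-Y, and a nearby cell cycle homology element (CHR, TTTGAA or TTCGAA), bound by complexes with the MuvB core. Below are the 150 bases before the annotated start, from RefSeq on GRCm38.p6, written 5′ to 3′ on the gene's strand, with CCAAT and TTTGAA or TTCGAA in capitals as read on either strand. *Ccnb2* lies on the minus strand at chr9:70421555-70421704, *Cdc20* on the minus strand at chr4:118437344-118437493, *Cenpa* on the plus strand at chr5:30666736-30666885 and *Cdkn3* on the plus strand at chr14:46760391-46760540.
Ccnb2: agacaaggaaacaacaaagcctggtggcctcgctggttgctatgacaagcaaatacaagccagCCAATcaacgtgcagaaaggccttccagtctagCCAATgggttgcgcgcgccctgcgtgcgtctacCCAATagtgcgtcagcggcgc
Cdc20: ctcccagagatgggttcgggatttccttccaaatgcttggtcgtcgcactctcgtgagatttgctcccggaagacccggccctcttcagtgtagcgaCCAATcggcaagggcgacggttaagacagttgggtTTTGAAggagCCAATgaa
Cenpa: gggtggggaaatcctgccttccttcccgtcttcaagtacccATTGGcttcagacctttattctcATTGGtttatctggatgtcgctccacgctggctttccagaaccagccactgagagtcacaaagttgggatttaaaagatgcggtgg
Cdkn3: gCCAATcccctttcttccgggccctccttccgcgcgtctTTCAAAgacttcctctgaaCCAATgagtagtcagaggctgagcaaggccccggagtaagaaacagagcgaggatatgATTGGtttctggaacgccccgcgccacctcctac

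In *Ccnb2* and *Cenpa*, a TTTGAA lay just past the annotated start. These sites are shown as 30 bases each, at chr9:70421533-70421562 and chr5:30666890-30666919.
Ccnb2 site: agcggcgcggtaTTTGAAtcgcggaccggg
Cenpa site: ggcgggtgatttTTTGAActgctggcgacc

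The *Ccnb2* site spanned bases 5 to 10 after the start, the *Cenpa* site bases 17 to 22, and the *Cdc20* site bases -18 to -13 before it. The TTTGAA of *Cdkn3* was on the opposite strand and farther away, at -111 to -106. Each of the 4 promoters held at least 2 CCAAT, beside 43.9% of promoters of the mitotic lists and 12.2% of all promoters. Over the 250 bases before and 50 after the start, 54 of the 82 promoters matched for the 97 genes of the mitotic lists (65.9%) held TTTGAA or TTCGAA on either strand, beside 5254 of 27025 genes with a promoter in the table (19.4%). Within 50 bases of the start, 56.1% of the mitotic promoters and 5.29% of all promoters held it. CCAAT was found in 59 (72.0%) of the mitotic promoters and 37.9% of all, and both motifs in 54.9% and 7.70%. Of the 21 promoters matched for 25 DNA replication genes, 3 held TTTGAA or TTCGAA (14.3%), none of them within 50 bases of the start, and 12 held CCAAT (57.1%). For inhibitory receptors, the motif TTTGAA or TTCGAA was found in 2 of 7 promoters. A match describes letters in a window, and no test of enrichment was made.

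Mitotic cells made up a larger part of the CD8-IFNγRKO tumor library. They were 11.9% (11.1 to 12.7) of control and 21.6% (20.8 to 22.5) of CD8-IFNγRKO cells, 1.82 times the control share. In LN, 6 of 6658 control cells (0.0901%, 0.0331 to 0.196) and 11 of 6754 CD8-IFNγRKO cells (0.163%, 0.0813 to 0.291) met the rule. In tumors the share rose with the depth of the cell, and LN cells were shallower, with medians of 4052.5 and 3865.5 UMIs. A deeper cell can reach 10 UMIs more easily, but the part of depth in these shares was not tested. Thinned to 2000 UMIs, with 2 marker UMIs required, the LN shares were 0.238% and 0.255%, control first. At 5000 UMIs with 5 required, they were 6 of 1803 cells (0.333%, 0.122 to 0.723) and 7 of 1522 (0.460%, 0.185 to 0.945). At 10000 UMIs with 10 required, they were 4 of 169 (2.37%, 0.649 to 5.95) and 5 of 90 (5.56%, 1.83 to 12.5). The last setting left out 97.5% and 98.7% of LN cells. Members held a median of 15857.5 UMIs and 3875 genes in the control library and 17133.5 UMIs and 3988 genes in the CD8-IFNγRKO library, against 5712 and 7603.5 UMIs in the other cells. Below 2000 UMIs, none of 808 control and 667 CD8-IFNγRKO cells was a member, with upper 95% bounds of 0.456% and 0.552%.

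Among cells of like depth the shares of the genotypes were also compared. From 5000 to 10000 UMIs, 5.65% (4.77 to 6.65) of control and 9.86% (8.69 to 11.1) of CD8-IFNγRKO cells were mitotic. From 10000 to 15000 UMIs the shares were 22.8% (20.3 to 25.5) and 26.1% (24.1 to 28.2), and from 15000 to 20000 UMIs 34.7% (30.5 to 39.1) and 41.9% (39.0 to 44.8). The CD8-IFNγRKO share was higher in each range above 2000 UMIs, but the intervals were apart only from 5000 to 10000 UMIs and overlapped in the others. With each cell thinned to 5000 UMIs and 5 marker UMIs required, which left out 37.2% of control and 25.8% of CD8-IFNγRKO cells, the shares were 13.8% (12.8 to 14.9) and 21.2% (20.2 to 22.3). With 10000 UMIs and 10 marker UMIs they were 19.2% (17.5 to 21.0) and 23.0% (21.7 to 24.3), the smallest difference of these settings, with 71.3% and 53.4% of cells left out. The spread between mice was not measured, since the 3 mice of each genotype were pooled.

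**Figure D1:**
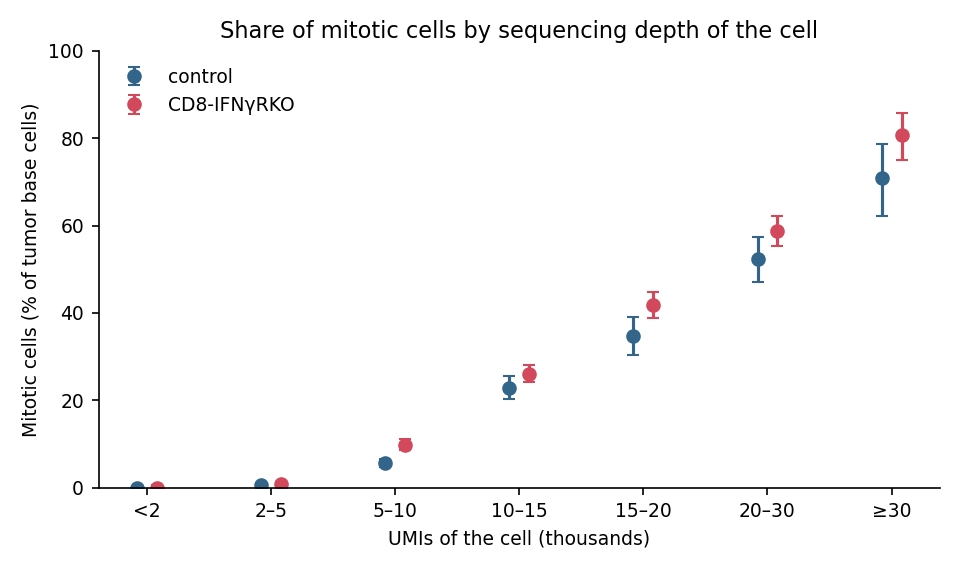
Mitotic cells as a percentage of tumor cells that passed the filters (vertical axis), by the UMIs of the cell divided by 1000 (horizontal axis), for control (blue) and CD8-IFNγRKO (red). Points are shares and bars 95% Clopper-Pearson intervals for counting error. The share climbed from 0% below 2000 UMIs to 70.9% and 80.7% above 30000 UMIs.

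Genes that the rule did not name were then used to check the label. These were 10 genes of mitosis, *Plk1*, *Aurka*, *Ccnb1*, *Ube2c*, *Cenpf*, *Cenpe*, *Tpx2*, *Hmmr*, *Kif20a* and *Bub1*. At least 5 of them were detected in 77.0% of control and 74.2% of CD8-IFNγRKO members, against 15.1% and 23.9% of other cells matched to members on total UMIs. None was detected in 18 and 26 members. The border set by the rule was not sharp. In the control library, at least 5 of the 10 were detected in 58.6% of the 140 cells just inside the threshold, with 10 or 11 rule UMIs, and in 53% of the 149 cells just outside it, with 8 or 9. The CD8-IFNγRKO shares were 51.5% of 264 and 48.0% of 373 cells. Cells just outside the threshold thus resembled those just inside it, and the members are the upper range of a graded measure.

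The mitotic programme was described gene by gene against these depth-matched cells. The matching paired 815 of 844 control members and 1733 of 1868 CD8-IFNγRKO members, each with another tumor cell of the same library within 10% of its UMIs. The medians were 15605 and 15590 UMIs in the control library and 16391 and 16066 in the CD8-IFNγRKO library, members first. No free partner was found for 29 and 135 members. Levels are pooled CPM and ratios are log2 values of pooled CPM with 1 CPM added. Since the rule chose cells on the same RNA, the ratios are a description with no test. A gene counted as measured when either group reached 50 CPM, and 102 of 2952 such genes in the control library were at least 2-fold higher in members (3.46%) and 1 was at least 2-fold lower (0.0339%). In the CD8-IFNγRKO library, 46 of 2927 genes were at least 2-fold higher (1.57%) and 2 were lower (0.0683%). Ratios above 0 were found for 53.5% and 52.6% of genes measured in the control and CD8-IFNγRKO libraries, the background of any count above or below 0.

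Genes of all stages of mitosis were higher in members. Over all 97 genes in lists of mitotic machinery, whatever their level, the median log2 ratio was 1.75 in the control and 1.10 in the CD8-IFNγRKO library. Of these, 97 and 95 had ratios above 0, and 83 and 54 were at least 2-fold higher. The filter of 50 CPM was passed by 65 in each library, but 39 of these in control and 29 in CD8-IFNγRKO passed only through members. The median of the 65, 1.74 and 1.21, was therefore partly set by the filter, as is any comparison with the 0.02 and 0.01 over all genes measured. By a filter on matched cells alone, added after the data were seen, 26 and 36 genes reached 50 CPM, of which 20 and 14 were at least 2-fold higher, with medians of 1.35 and 0.86. Against other cells low in replication genes, the mitotic medians were 3.19 in control and 2.34 in CD8-IFNγRKO. *Ube2c*, which encodes the ubiquitin-conjugating enzyme of the anaphase-promoting complex, had the largest ratio of the ranked genes outside the rule. It stood at 794 CPM in control members and 52.8 CPM in matched cells, a log2 ratio of 3.89 (3.78 to 4). In the CD8-IFNγRKO library the levels were 752 and 83.4 CPM, a log2 ratio of 3.16 (3.10 to 3.22). Members of the 2 libraries were alike in level, and the matched CD8-IFNγRKO cells held more.

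Among the cyclins and their kinase, all 8 listed genes were at least 2-fold higher in control members and 6 of 8 in CD8-IFNγRKO members. *Ccnb1*, cyclin B1, stood at 118 CPM in control members and 16.3 CPM in matched cells (log2 ratio 2.79), and at 134 and 26.4 CPM in the CD8-IFNγRKO library (2.30). *Cdk1*, the kinase that cyclin B activates, had log2 ratios of 1.85 (1.72 to 1.97) in the control and 0.97 (0.90 to 1.03) in the CD8-IFNγRKO library. *Cdc25b*, a phosphatase that activates CDK1, had ratios of 2.33 and 1.95. Of 11 mitotic kinases, 9 and 5 were at least 2-fold higher. *Plk1*, polo-like kinase 1, stood at 82.9 and 10.2 CPM in the control library (2.90), and at 100.1 and 23.0 CPM in the CD8-IFNγRKO library (2.08). *Nek2*, a centrosome kinase, had ratios of 2.99 and 2.46 but was under 50 CPM in the control library, and *Aurkb*, the kinase of the chromosomal passenger complex, 1.45 and 0.77.

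The passenger complex, kinesins and spindle genes were higher as well. *Birc5*, survivin, a subunit of the passenger complex, stood at 478 CPM in control members and 91.6 CPM in matched cells (log2 ratio 2.37), and at 501 and 166 CPM in the CD8-IFNγRKO library (1.59). All 12 genes of the kinesin list had ratios above 0, and 11 in the control and 10 in the CD8-IFNγRKO library passed 2-fold. *Kif23*, a motor of the central spindle, had ratios of 2.38 and 1.63. Of 19 spindle genes, 19 were at least 2-fold higher in the control and 16 in the CD8-IFNγRKO library. *Hmmr*, a spindle assembly factor, had ratios of 3.18 and 2.34, *Aspm*, a spindle pole protein, 2.39 and 1.78, and *Tpx2*, which activates Aurora A on the spindle, 2.29 and 1.65. *Knstrn*, a spindle and kinetochore protein, had 2.47 and 1.83. *Tuba1b*, an alpha tubulin and the most abundant gene of the list, stood at 2177 and 801 CPM in the control library (1.44) and at 2224 and 1352 CPM in the CD8-IFNγRKO library (0.72). Tubulin genes have close paralogs, so that single tubulins are uncertain.

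At kinetochores, *Cenpf*, a protein of the outer kinetochore, had log2 ratios of 3.23 in the control and 2.60 in the CD8-IFNγRKO library, and *Cenpe*, a kinesin that moves chromosomes to the spindle equator, 2.42 and 1.91. The checkpoint gene *Bub3* had 0.92 and 0.66. Of 14 kinetochore genes, 10 and 4 were at least 2-fold higher, and of 9 genes of the anaphase-promoting complex list, 6 and 3. Of 14 genes of chromosome condensation, 10 and 2 were at least 2-fold higher. *Top2a*, which untangles sister DNA, had ratios of 1.37 and 0.73, and *Mki67*, which coats mitotic chromosomes and encodes the proliferation marker Ki-67, 1.74 and 1.05. Of 5 cytokinesis genes, 5 and 4 were at least 2-fold higher, with *Ect2*, which activates the GTPase of the contractile ring, at 1.97 and 1.07. Some genes of these lists were little apart. *Pttg1*, which encodes securin, had ratios of 0.18 and 0.33. *Fbxo5*, an inhibitor of the anaphase-promoting complex, stood at 78.2 and 35.8 CPM in the control library (1.11), and at 63.4 and 59.3 CPM in the CD8-IFNγRKO library (0.09). Transcription factors of the cell cycle were under 50 CPM, apart from *E2f1* in the CD8-IFNγRKO library. *Foxm1*, an activator of mitotic genes, stood at 33.5 and 8.22 CPM in control and at 31.4 and 16.6 CPM in CD8-IFNγRKO cells, members first. Besides the lists, the 10 highest genes in both libraries included *Reep4*, which clears endoplasmic reticulum from mitotic chromosomes (2.06 and 1.87). Of these 10, all but *Ube2c* were under 50 CPM in matched cells of both libraries, so that they entered the ranking only through members.

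**Figure D2:**
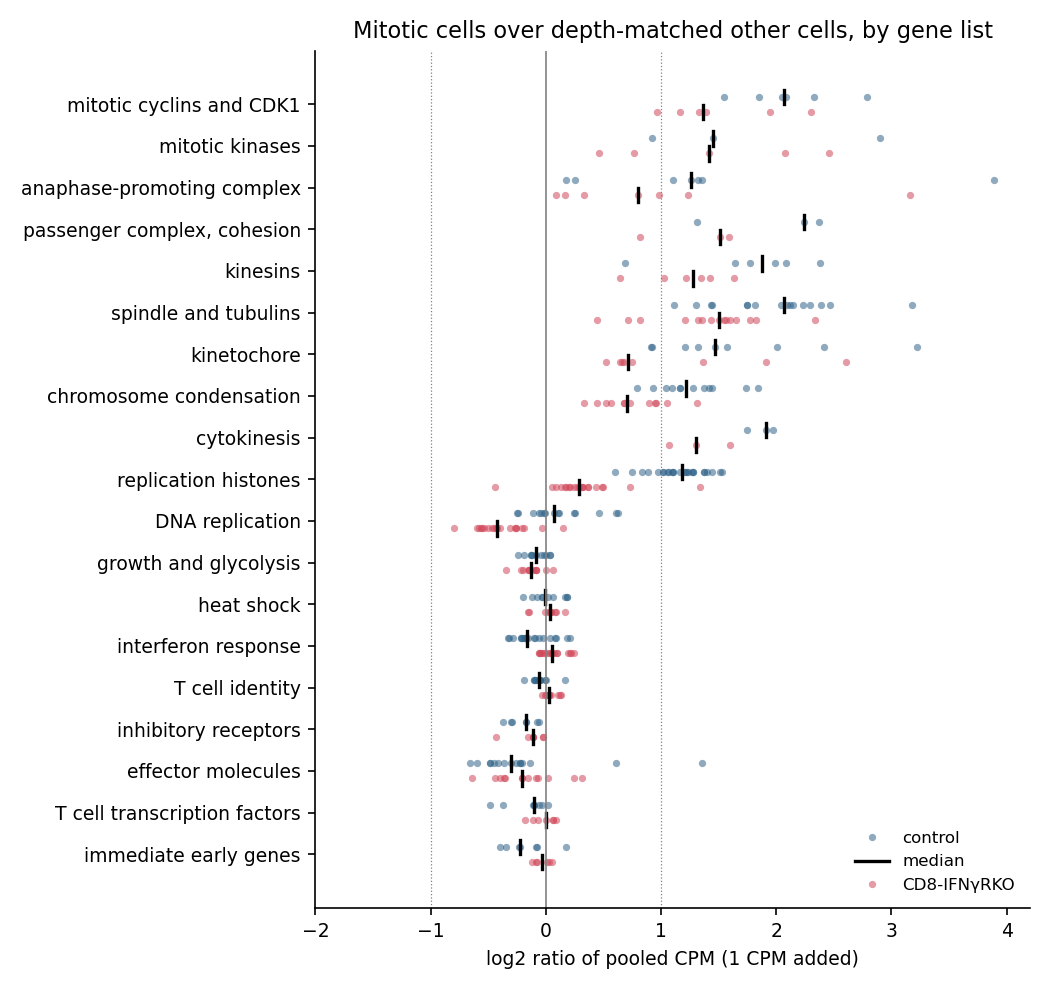
Log2 ratio of pooled CPM, with 1 CPM added, of mitotic cells over depth-matched other cells (horizontal axis), by gene list (vertical axis), for control (blue) and CD8-IFNγRKO (red). Each point is a gene with at least 50 CPM in either group, black bars are list medians, and dotted lines mark 2-fold. The mitotic lists lie right of 0 in both libraries, with control points farther right, and DNA replication lies near 0 in control and left of 0 in CD8-IFNγRKO against these matched cells.

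Genes of DNA replication did not follow the mitotic genes. In the control library, 15 of 25 were measured, none was 2-fold higher or lower, and the median log2 ratio was 0.08. In the CD8-IFNγRKO library, 20 were measured, none passed 2-fold, and the median was -0.43. These medians depended on the cells compared. They were 0.46 and -0.12 against all other cells, 0.51 and -0.10 in thinned cells, and -0.29 and -0.65 with 20 rule UMIs asked for, control first. *Mcm6*, a subunit of the replicative helicase, stood at 212 and 252 CPM in the control library (-0.25), and at 252 and 381 CPM in the CD8-IFNγRKO library (-0.59), members first. *E2f1*, a transcription factor of the G1/S transition that is not in this list, had ratios of -0.62 and -1.09. The second was 1 of the 2 genes at least 2-fold lower in that library. *Cdc6*, which loads the helicase, had -0.32 and -0.80. *E2f1* and *Cdc6* were under 50 CPM in the control library. *Rrm2*, a subunit of ribonucleotide reductase, stood at 252 and 164 CPM in the control library (0.61) and at 268 and 274 CPM in the CD8-IFNγRKO library (-0.03). Matched cells of the CD8-IFNγRKO library more often held replication transcripts than those of the control library. At least 10 UMIs of *Mcm2* to *Mcm7* were present in 49.1% of matched cells of the control library and 77.7% of those of the CD8-IFNγRKO library, beside 53.7% and 66.9% of members. Against matched cells with fewer than 10 of these UMIs, the median log2 ratio was 1.87 in the control and 1.46 in the CD8-IFNγRKO library, a direction fixed by that selection, since *Mcm2* to *Mcm7* are genes of the list.

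Replication-dependent histone genes, which are transcribed in S phase to package new DNA, were higher in control members. Of 67 such genes, 64 had a UMI in the control cells compared, all with ratios above 0 and 40 of them at least 2-fold higher, with a median log2 ratio of 1.08. In the CD8-IFNγRKO library 59 of 65 were above 0 and 1 was 2-fold higher, with a median of 0.32. Of the 26 and 21 genes that reached 50 CPM, with medians of 1.19 and 0.28, 16 and 4 did so only through members. Across the other settings tried, these medians ran from 0.69 to 2.74 in control and from 0.073 to 1.86 in CD8-IFNγRKO, the highest against other cells low in replication genes. *Hist1h2ap*, the most abundant, stood at 2589 CPM in control members and 1109 CPM in matched cells (1.22), and at 1764 and 1449 CPM in the CD8-IFNγRKO library (0.28). In cells thinned to 5000 UMIs, the histone genes together gave a median of 31 UMIs in control members, with quartiles of 11 and 61, and 6 UMIs in matched cells. Medians of the CD8-IFNγRKO library were 20 and 14. Most of these transcripts lack a poly(A) tail, and their sequences are close copies, so that single histone genes are uncertain.

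Members differed among themselves along the rule's sum. The 97 mitotic genes summed to 16513 CPM in the 289 control members with 10 to 14 rule UMIs, 20165 CPM in the 312 with 15 to 24, and 25273 CPM in the 243 with 25 or more. In the CD8-IFNγRKO library the sums were 16852, 19342 and 25699 CPM, over 617, 739 and 512 cells. The 25 replication genes went the other way, from 3179.5 to 2561 and 2042 CPM in control and from 3818 to 3254 and 2538 CPM in CD8-IFNγRKO members. Replication histones went from 8127 to 7991 and 6493 CPM in control members and from 6986 to 6207 and 5973 CPM in CD8-IFNγRKO members. Members with the fewest rule UMIs thus held the most replication transcripts in both libraries. Median depth was 14922, 14806.5 and 18815 UMIs in the control bands and 15285, 16580 and 19801 UMIs in the CD8-IFNγRKO bands, and its part in these differences was not tested.

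**Figure D3:**
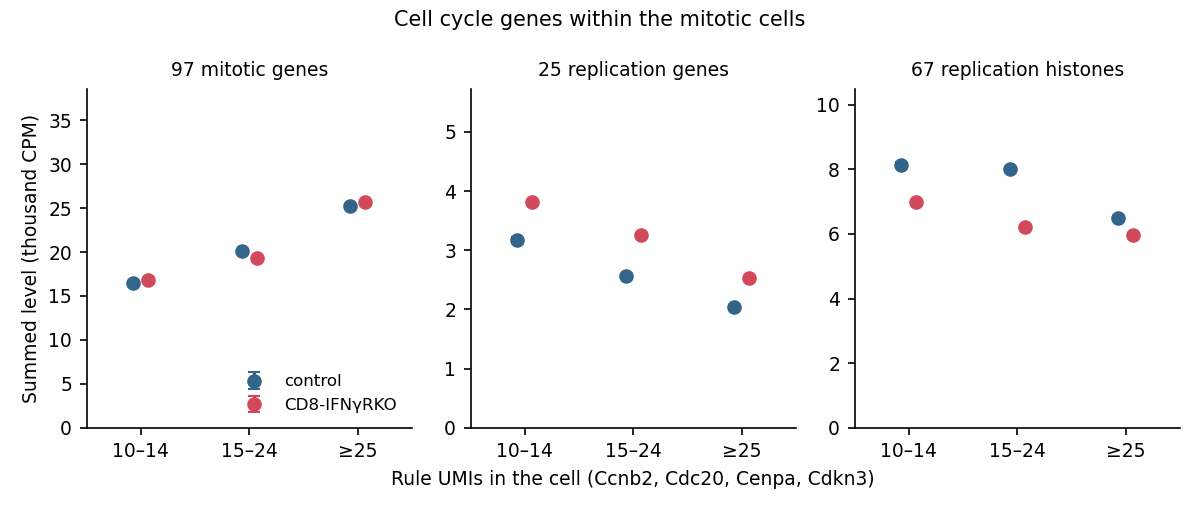
Summed level of 97 mitotic, 25 DNA replication and 67 replication histone genes (vertical axes, CPM divided by 1000) in mitotic cells with 10 to 14, 15 to 24 or at least 25 rule UMIs (horizontal axis), for control (blue) and CD8-IFNγRKO (red). Bars, mostly within the points, are 95% Poisson intervals. Mitotic genes are higher and replication genes lower in the last band than in the first in both libraries, as 25273 against 16513 CPM and 2042 against 3179.5 CPM in control.

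Regulators of G1 went both ways. *Cdkn2c* and *Cdkn2d*, which inhibit CDK4 and CDK6, had log2 ratios of 1.04 and 0.89, and 1.02 and 0.83, control before CD8-IFNγRKO. *Ccnd2*, a cyclin of G1, had -0.67 and -0.35, and *Cdkn1a*, the p21 inhibitor, -0.16 and -0.50. *Cdkn2c* was under 50 CPM in matched cells and in the CD8-IFNγRKO library. Of 9 genes of this list measured in the control library, 3 had ratios above 0.

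None of the 12 T cell identity genes was 2-fold higher or lower, with medians of -0.06 in the control and 0.03 in the CD8-IFNγRKO library. Across the other settings tried, these ran from -0.20 to -0.050 and from -0.13 to 0.11, so that the sign of the second turned. All 7 inhibitory receptors measured had ratios below 0 in both libraries, with medians of -0.17 and -0.11, the second 0.010 with 20 rule UMIs asked for. *Pdcd1*, which encodes PD-1, stood at 740 and 782 CPM in the control library (-0.08) and at 599.8 and 609 CPM in the CD8-IFNγRKO library (-0.02). *Lag3* had -0.30 and -0.11. *Cd160* was lowest, at -0.37 and -0.43. *Pdcd1* was seen in 94.2% and 91.3% of thinned members and in 96.1% and 91.0% of thinned matched cells.

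Most effector genes had ratios below 0 in members, but none was at least 2-fold lower in either library. Of 15 measured in the control library, 13 had ratios below 0, and of 13 in the CD8-IFNγRKO library, 10, with medians of -0.30 and -0.20. *Ccl5*, a chemokine, stood at 4864 CPM in control members and 7666 CPM in matched cells (-0.66), and at 1710 and 2204 CPM in the CD8-IFNγRKO library (-0.37). *Prf1*, perforin, had ratios of -0.48 and -0.40, and *Gzmb*, granzyme B, -0.30 and -0.21. *Gzma* and *Gzmk*, granzymes A and K, had ratios above 0 in both libraries. *Gzmk* had 0.61 and 0.31. *Gzma* stood at 50.4 and 19.1 CPM in the control library, where it reached 50 CPM only through members, a ratio of 1.36 (1.16 to 1.56), and at 171 and 144 CPM in the CD8-IFNγRKO library (0.24). In cells thinned to 5000 UMIs, the 16 effector genes gave a median of 72 UMIs in control members and 100 UMIs in matched cells, and 59 and 66 UMIs in the CD8-IFNγRKO library. The quartiles overlapped, from 51 to 99 UMIs in control members and from 68 to 139 UMIs in their matched cells.

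The 2745 genes measured in both libraries were also ranked by the ratio nearer to 0 of the 2 libraries. The lowest by that ranking was *Ccr7*, the chemokine receptor that guides T cells into LN. It stood at 35.1 and 82.5 CPM in the control library (-1.21), and at 30.7 and 52.2 CPM in the CD8-IFNγRKO library (-0.75). With 5 or 20 rule UMIs asked for, its control ratio was -0.78 and -0.96, no longer 2-fold. Across the other settings tried, its ratio ran from -2.11 to -0.78 in control and from -1.66 to -0.61 in CD8-IFNγRKO. The other 9 lowest were smaller in size, from -0.40 to -0.68 over both libraries. They included *Il1r2*, a decoy receptor for interleukin-1 (-0.52 and -0.65), *Tnfrsf4*, the costimulatory receptor OX40 (-0.52 and -0.54), *Hilpda*, a lipid droplet protein induced by hypoxia (-0.57 and -0.48), *Bnip3*, a mitophagy receptor induced by hypoxia (-0.47 and -0.62), and *Srm*, spermidine synthase (-0.41 and -0.68). *Ccr7* in both libraries, and *Bnip3* and *Srm* in control, reached 50 CPM only in matched cells. These sizes depended on the setting. The control ratio of *Srm* was 0.16 against all other cells and 0.29 against cells low in replication genes, that of *Bnip3* ran from -0.85 to -0.063, and that of *Il1r2* in the CD8-IFNγRKO library from -1.81 to -0.22. *Serpinb9b*, a serpin also among the 10 lowest, turned to 0.071 in the CD8-IFNγRKO library against all other cells. *Tcf7*, a transcription factor of stem-like T cells, was rare in members, at 2.93 CPM in the control and 5.55 CPM in the CD8-IFNγRKO library, against 578 and 552 CPM in LN cells. A UMI of it was seen in 0.841% and 2.32% of thinned members and in 1.12% and 2.85% of matched cells. *Xcl1*, a chemokine, went opposite ways. It stood at 65.3 and 50.5 CPM in the control library (0.37), and at 83.8 and 215 CPM in the CD8-IFNγRKO library (-1.35).

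Mitotic cells of both genotypes were then compared with each other. The question was whether cells that divide carry the differences of the genotypes, and the same ratio was taken in the depth-matched other cells beside it. Among members, 11 of 2964 genes were at least 2-fold higher in the CD8-IFNγRKO library (0.371%) and 21 were at least 2-fold lower (0.709%). Across the other settings tried, the members' counts ran from 3 to 22 higher and from 10 to 39 lower. Among matched other cells, 19 of 2990 genes were higher (0.635%) and 26 lower (0.87%). Ratios above 0 made up 54.4% and 54.0% of the genes measured in members and in matched other cells. The interquartile range of the log2 ratios over genes was 0.285 in members and 0.425 in matched other cells. Whether these ranges differ was not tested.

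The mitotic machinery was at like levels in both libraries when cells were pooled, and lower in CD8-IFNγRKO members when each clone was given the same weight. None of 66 genes measured was 2-fold higher or lower, and the median log2 ratio was 0.01, with 34 above 0. With clones weighted alike the median was -0.27, and that of the spindle and kinetochore lists -0.37 and -0.41. That setting kept only the 458 control and 1380 CD8-IFNγRKO members with a clone, in 44 and 59 clones. Of these clones, 27 and 36 held at least 2 members. It thus changed the cells as well as their weight, and the 2 were not separated. In matched other cells, 36 of the genes were measured, 35 were above 0, and the median was 0.57. The rule asked for the same number of marker UMIs in both libraries, so that the members' values are not independent of it. *Ube2c* stood at 774 CPM in control and 726 CPM in CD8-IFNγRKO members (-0.09), and *Ccnb1* at 114 and 130.4 CPM (0.19). *Plk1* had the ratio 0.29 (0.20 to 0.39), and *Fam83d*, a spindle protein, the lowest of the lists at -0.65 (-0.77 to -0.53).

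Replication genes were higher in CD8-IFNγRKO members, by an amount that depended on the members kept and the weight of clones. All 15 measured had ratios above 0, none passed 2-fold, and the median was 0.28, against 0.75 in matched other cells, where 1 of 20 passed 2-fold. With each clone given the same weight, the members' median was 0.061. *Mcm2* stood at 61 CPM in control and 96.5 CPM in CD8-IFNγRKO members (0.65), and *Pcna*, the sliding clamp of DNA polymerase, at 169 and 192 CPM (0.18). Replication histones went the other way in members. Their median was -0.18 over 26 genes, and from -0.57 with clones weighted alike to -0.070 with 5 rule UMIs, with *Hist1h2ap* at 2526 and 1735 CPM (-0.54), whereas in matched other cells it was 0.79 over 17 genes, all above 0.

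Genes of growth and glycolysis had ratios above 0 in CD8-IFNγRKO members, and most T cell identity and inhibitory receptor genes below 0. None of these passed 2-fold in members, and their medians were similar in matched other cells. All 12 growth and glycolysis genes had ratios above 0 in members, with a median of 0.42, against 0.46 in matched other cells. *Myc*, a transcription factor that drives growth, stood at 48.8 and 97.5 CPM (0.98), and *Ldha*, lactate dehydrogenase A, at 1934 and 2596 CPM (0.42). All 10 heat shock genes were above 0, with a median of 0.74 in members and 0.73 in matched other cells, led by *Hspa1a* at 187 and 619 CPM (1.72). *Hspa1a* and *Hspa1b* are nearly identical. Heat shock genes respond to the handling of cells, and their part in the other ratios was not tested. With heat shock, TCR, ribosomal and mitochondrial genes left out of the totals, the replication median was 0.34 and 13 genes were higher and 24 lower by at least 2-fold.

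Of 12 T cell identity genes, 11 had ratios below 0 (median -0.34, and -0.42 in matched other cells), with *Trbc2*, a constant region of the TCR beta chain, the exception at 0.28. All 7 inhibitory receptors measured were below 0 (median -0.33, and -0.36 in matched other cells). *Lag3* stood at 699.9 CPM in control and 443 CPM in CD8-IFNγRKO members (-0.66), *Tigit* at 395 and 267 CPM (-0.56) and *Pdcd1* at 733 and 594 CPM (-0.30). Of 8 T cell transcription factor genes measured, 2 were at least 2-fold lower. The median was -0.29, and from -0.87 to -0.20 across the other settings tried. In matched other cells 3 of 8 were at least 2-fold lower, with a median of -0.46. Among factors that T cell receptor signals induce, members had ratios of -1.07 for *Nr4a1*, -1.19 for *Nr4a3* and -0.87, under 2-fold, for *Nr4a2*. Of 7 immediate early genes measured in members, 3 had ratios above 0 and 1 was at least 2-fold lower, with a median of -0.58. Their ratios ranged from -1.10 for *Egr1* to 0.43 for *Jun*, both transcription factors. The median ran from -0.60 to -0.29 across the other settings tried. In matched other cells, 2 of 7 immediate early genes were at least 2-fold lower, with a median of -0.65.

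Effector genes went both ways, with 2 of 15 at least 2-fold higher and 4 lower in CD8-IFNγRKO members. *Gzme* stood at 332 CPM in control and 55.6 CPM in CD8-IFNγRKO members (-2.56), *Gzmd* at 262 and 49.5 CPM (-2.38), and *Ccl5* at 4944 and 1692 CPM (-1.55). *Gzmb* stood at 3138 and 5011 CPM (0.68), *Gzmc* at 254 and 624 CPM (1.29), and *Gzma* at 54.6 and 162 CPM (1.55). Granzymes C, D and E are close paralogs, so that single members are uncertain. The *Gzma* ratio was -0.57 with each clone given the same weight. In matched other cells it was 2.85. *Gzmc* was 0.88 and *Ccl5* -0.97 with clones weighted alike, both then under 2-fold. *Gzmd* ran from -2.60 to -1.39 across the other settings tried, at least 2-fold lower in each.

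Interferon response genes went both ways. Of 18 measured, 8 had ratios above 0 and the median was -0.02, with a range from -0.070 to 0.092 across the other settings tried. *Irf1*, a transcription factor induced by IFNγ, stood at 259.8 CPM in control and 159.8 CPM in CD8-IFNγRKO members (-0.70), and *Bst2*, tetherin, at 149 and 275 CPM (0.88). Of the 10 genes ranked highest, 6 were outside the lists. *Gm43305* had the largest ratio, at 8.05 and 52.6 CPM (2.57). *Chchd10* (1.13) encodes a mitochondrial protein, *Fdps* (1.40), *Idi1* (1.17) and *Cyp51* (1.10) encode enzymes of isoprenoid and sterol synthesis, and *Itga4* (1.03) encodes the integrin alpha 4 chain. Among the 10 genes ranked lowest, beside *Gzme*, *Gzmd* and *Ccl5*, were *Areg*, amphiregulin, at 91.1 and 13.9 CPM (-2.63), *Ifitm1* (-2.30), *Cd74*, the MHC class II invariant chain (-2.27), *Serpine2*, a protease inhibitor (-2), *Nrn1*, neuritin (-1.69), *Camk2n1*, an inhibitor of the kinase CaMKII (-1.52), and *Spp1*, osteopontin (-1.49). In matched other cells the same genes had ratios of -3.31, -2.04, -2.60, -2.23, -1.77, -1.75 and -1.96. With each clone given the same weight, *Cd74* was -0.64, *Nrn1* -0.20, *Itga4* 0.34 and *Chchd10* 0.90, no longer 2-fold. With 10 CPM added, *Idi1* was 0.93, *Cyp51* 0.90, *Itga4* 0.95 and *Chchd10* 0.98, also under 2-fold. Across the other settings tried, *Cd74* ran from -4.16 to -0.64. It moved with the other MHC class II genes, *H2-Aa* at 23.2 and 3.16 CPM and *H2-Eb1* at 23.7 and 3.07 CPM, which dendritic and B cells express at high levels. In thinned control members, dendritic cell genes were seen in 8.17% of cells, with up to 134 UMIs in a cell, beside 4.64% and up to 47 UMIs in CD8-IFNγRKO members. Their part in the result was not tested.

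**Figure D4:**
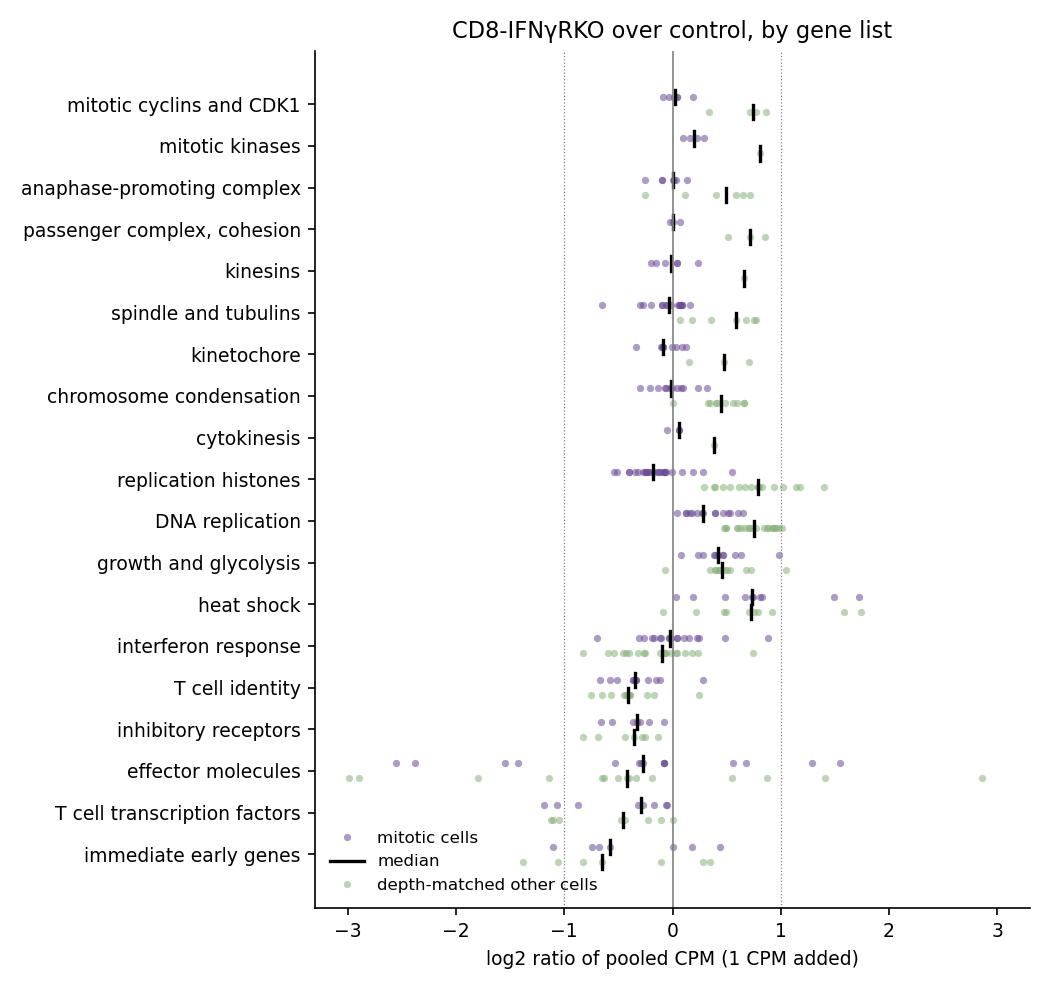
Log2 ratio of pooled CPM, with 1 CPM added, of CD8-IFNγRKO over control (horizontal axis), by gene list (vertical axis), in mitotic cells (purple) and depth-matched other cells (green). Each point is a gene with at least 50 CPM in either library, black bars are list medians, and dotted lines mark 2-fold. Mitotic lists lie around 0 in mitotic cells and right of 0 in matched cells, while heat shock, growth and T cell lists lie at like values in both.

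TCR sequences, which the rule did not use, showed which clones the dividing cells belonged to. Cells with the same V and J segments and CDR3 nucleotide sequences in both chains were taken as a clone. A clone was assigned to 458 control members (54.3%) and 1380 CD8-IFNγRKO members (73.9%), against 39.9% and 71.0% of depth-matched cells, so that many control members had no pair of chains. The assigned members fell into 44 and 59 clones. Nearly all shared their clone with another tumor cell, 98.9% (97.5 to 99.6) in control and 99.1% (98.5 to 99.5) in CD8-IFNγRKO, but depth-matched cells did so in 98.8% and 98.5%. Among all other tumor cells the shares were 95.4% (94.7 to 96.0) and 92.3% (91.5 to 93). These include the depth-matched cells, and the part of depth in the difference was not tested.

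Mitotic cells occurred in each of the 10 largest clones of each library. In control these clones were 3.64% to 15.3% mitotic, and in CD8-IFNγRKO 6.71% to 30.4%. The largest control clone held 92 mitotic cells of 1104 (8.33%, 6.77 to 10.1), and the largest CD8-IFNγRKO clone 398 of 1463 (27.2%, 24.9 to 29.6). The shares of 8 of the 10 CD8-IFNγRKO clones lay above the highest control clone. The CD8-IFNγRKO clone with the lowest share, 10 of 149 cells (6.71%, 3.27 to 12.0), was also the shallowest, with a median of 3211 UMIs. Thinned to 5000 UMIs, 8 of its 33 remaining cells (24.2%) met the thinned rule, and the clones then ranged from 8.33% to 23.2% in control and from 14.7% to 28.4% in CD8-IFNγRKO, so that the ranges overlapped. The largest clones then stood at 11.3% (9.21 to 13.7) and 22.9% (20.6 to 25.2).

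**Figure D5:**
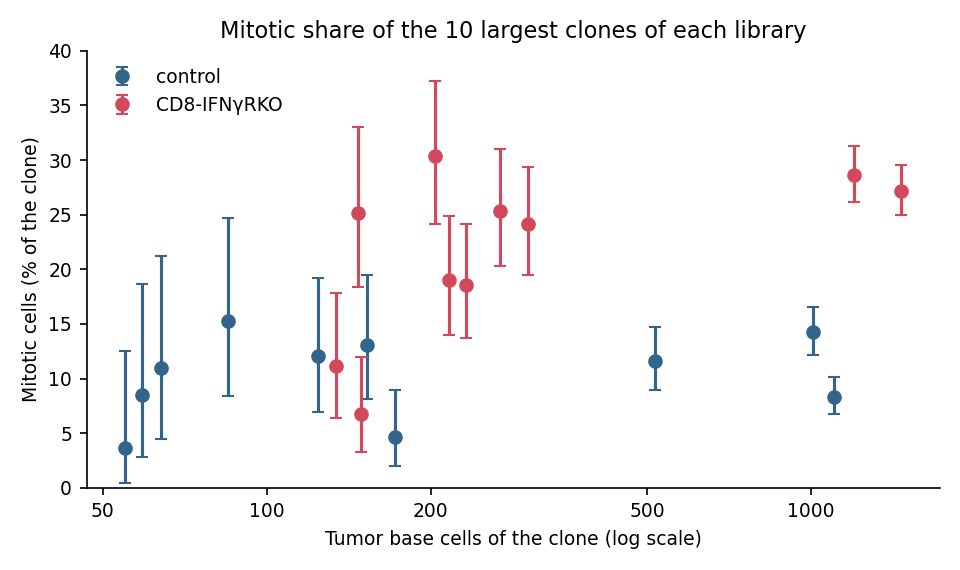
Mitotic cells as a percentage of the clone (vertical axis) by the number of tumor cells in the clone (horizontal axis, log scale), for the 10 largest clones of the control (blue) and CD8-IFNγRKO (red) libraries. Bars are 95% Clopper-Pearson intervals. Control clones lie between 3.64% and 15.3%, and CD8-IFNγRKO clones between 6.71% and 30.4%.

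Cells that were the only ones of their clone were seldom mitotic. In control, 5 of 182 (2.75%, 0.898 to 6.29) were, and in CD8-IFNγRKO 12 of 364 (3.3%, 1.71 to 5.69). The intervals overlapped, and so few mitotic cells cannot show whether the genotypes were alike. In clones of 2 to 9 cells the shares were 8.87% (5.34 to 13.7) and 16.8% (11.4 to 23.5), in those of 10 to 49 cells 12.4% (9.75 to 15.4) and 21.7% (16 to 28.4), and in those of 50 or more 11% (9.92 to 12.1) and 24.9% (23.7 to 26.1). Cells without an assigned clone were mitotic in 13.7% and 18.1%. Singletons were shallow, with medians of 4041 and 3997.5 UMIs against 6471 and 10523 UMIs in clones of 50 or more, and the part of depth in these shares was not tested.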

How the data were processed

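Reads were aligned by the authors to mouse build mm10 with Cell Ranger, and unnormalized UMI counts were deposited for 32285 genes in each barcode, and filtered TCR contigs with counts of UMIs per contig. The cells kept had between 200 and 6000 genes, no more than 3% of UMIs from mitochondrial genes, and a UMI of each of *Cd2*, *Cd8a* and *Cd8b1*. Members were chosen by 10 or more summed UMIs of *Ccnb2*, *Cdc20*, *Cenpa* and *Cdkn3*. The members and gene lists were chosen with earlier results of these data known. Computations used numpy 2.4.6, pandas 2.3.3, scipy 1.17.1 and matplotlib 3.10.9 under Python 3.11.15.

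Each member was matched once, without reuse, to the other cell of its library with the nearest total of UMIs, within 10%. UMIs were summed over cells, scaled as CPM, and compared as log2 ratios with 1 CPM added, over genes with at least 50 CPM in either group. Ribosomal protein, mitochondrial and TCR segment genes were left out, and in the comparison with matched cells also the 4 rule genes. At least 2-fold was called different. Intervals at 95% were Poisson for levels, conditional binomial for ratios and Clopper-Pearson for shares, and those for ratios were checked on simulated data. They cover counting error only, and no test was run. With 1 library per genotype and tissue, a p value would compare cells, not mice. The depth of members was 15025097 UMIs in the control and 34215366 in the CD8-IFNγRKO library.

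Genes named were those of the lists, and the 10 highest and 10 lowest ratios among genes with at least 100 UMIs over both groups, ranked in the comparison with matched cells by the smaller size of the ratios of both libraries. Cells were thinned without replacement to 5000, 2000 or 10000 UMIs, shallower ones left out. Promoters were taken from 27025 genes, the first RefSeq entry of each. Alternatives changed the threshold, filters, comparison cells, scaling, clones and doublets, and 2 were added after the data were seen. The alternative that gave each clone the same weight left out members without a clone.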

Additional observations from a re-analysis of the deposited data

Results flagged for a closer look

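Cells outside the comparisons also met the marker rule. In draining LN these were 6 control and 11 CD8-IFNγRKO cells. In tumors, 23 control and 48 CD8-IFNγRKO barcodes had more than 6000 genes and were left out by the filter, and 20 and 46 of them held at least 10 rule UMIs, 87.0% (66.4 to 97.2) and 95.8% (85.7 to 99.5). No second productive beta chain was found in these deep barcodes. Barcodes without any TCR chain were counted among them, so that this does not show them to be free of doublets.

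The ratio of CD8-IFNγRKO over control had opposite signs for replication histones in the cells compared, with medians of -0.18 in mitotic cells and 0.79 in depth-matched other cells. The first ran from -0.57 to -0.070 across the other settings tried. The difference was not tested, since each genotype was 1 library.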

How the results depend on the processing

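No paired analysis was possible because each genotype was 1 library per tissue, and no replicate could be left out. The mitotic share of control, 11.9%, and of CD8-IFNγRKO, 21.6%, was 13.8% and 21.2% with cells thinned to 5000 UMIs, 14.8% and 23.1% at 2000 UMIs, and 19.2% and 23.0% at 10000 UMIs. It was 19.4% and 35.5% with 5 rule UMIs, 5.36% and 9.32% with 20, 7.73% and 16.3% with no filter on *Cd2*, *Cd8a* and *Cd8b1*, 20.5% in CD8-IFNγRKO without the largest clone, and 15.1% and 23.0% by 10 other markers in thinned cells, an alternative added after the data were seen. The ratio of the shares, 1.82, was 1.53, 1.57 and 1.20 in cells thinned to 5000, 2000 and 10000 UMIs, 2.11 without the gene filter, 1.64 without the largest clone and 1.52 by the other markers, so that it stayed above 1 in each. Over matched cells, the mitotic median of control, 1.74, was 1.92 against all other cells, 2.28 thinned, 3.19 against cells low in replication genes, 1.93 with 5 rule UMIs, 1.46 with 10 CPM added and 1.35 with the filter on matched cells alone. That of CD8-IFNγRKO, 1.21, was 1.45 thinned, 2.34 against cells low in replication genes, 1.39 with 5 rule UMIs, 1.03 with 10 CPM added, 0.86 with the filter on matched cells alone, and 1.10 both without a filter on low genes and with 20 UMIs asked for. The replication median of control, 0.08, was 0.46 against all other cells, 0.51 thinned, 1.87 against cells low in replication genes, 0.31 with 5 rule UMIs and -0.29 with 20. That of CD8-IFNγRKO, -0.43, was -0.12, -0.10, 1.46, -0.19 and -0.65 in the same order. It turned against cells low in replication genes, which were selected to lack those transcripts.

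Between genotypes, the mitotic median of 0.01 was -0.079 thinned and -0.27 with each clone given the same weight. The replication median of 0.28 was 0.34 with 5 rule UMIs, 0.39 with a filter of 20 CPM, 0.34 with heat shock, TCR, ribosomal and mitochondrial genes out of the totals, and 0.061 with clones weighted alike. Genes at least 2-fold higher, 11, were 6 with 10 CPM added, 19 and 3 with filters of 20 and 200 CPM, and 22 with clones weighted alike. Those lower, 21, were 39, 10 and 36 under the last 3 settings. The median of replication histones over matched cells, 1.19 in control and 0.28 in CD8-IFNγRKO, was 1.34 and 0.41 against all other cells, 1.75 and 0.66 thinned, 2.74 and 1.86 against cells low in replication genes, 1.72 and 0.85 with 5 rule UMIs, and 0.69 and 0.073 with 20. Signs of small medians also turned. The growth median over matched cells was 0.044 in control and 0.026 in CD8-IFNγRKO against all other cells, and 0.0075 in CD8-IFNγRKO when thinned. In CD8-IFNγRKO the heat shock median was -0.037 against all other cells, -0.058 thinned and -0.0066 with 20 rule UMIs, where the inhibitory receptor median was 0.010 and the G1 median 0.022. The T cell identity median of CD8-IFNγRKO, 0.03, was -0.13 and -0.11 against all other cells and thinned, and the interferon response median, 0.05, was -0.24 and -0.19. With clones weighted alike, the mitotic kinase median between genotypes was -0.24 and *Gzma* -0.57. The cause of these shifts was not tested.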
